A study of Mus musculus with 9 samples.

Results

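The genes described here encode the CCN proteins, a family of secreted matricellular proteins, and were taken from the count table by name under their older symbols. These were Cyr61 (now Ccn1), Ctgf (Ccn2), Nov (Ccn3), Wisp1 (Ccn4) and Wisp2 (Ccn5), so 5 of the 23337 gene symbols in the table. All 5 passed the filter on low counts in every comparison. The remaining family gene, Wisp3 (Ccn6), was outside the choice and is given where it helps to place the others.

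RNA was sequenced from immortalised Cebpb-ko mouse embryonic fibroblasts (MEFs), whose strain is labelled C57BL/6 x 129. The cells are labelled as a Cebpb knockout in all 9 libraries, that is without the mouse's own functional C/EBPβ, a basic leucine zipper transcription factor that is made as long activating isoforms (LAP) and a short inhibitory isoform (LIP). The 3 groups carried a stably transfected empty vector (EV), rat C/EBPβ-LAP or rat C/EBPβ-LIP, with 3 libraries each, and the cells were kept under Zeocin selection. The comparison of LIP with EV asks what LIP changes in cells labelled as having no C/EBPβ of their own, that of LAP with EV asks the same for LAP, and that of LIP with LAP sets the isoforms against each other. The sources used here give no age for the cells, and they do not say whether a line was 1 clone or whether the numbered libraries were separate cultures. P-values therefore measure the spread between these libraries, which may be technical.

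CCN proteins are secreted into the extracellular matrix, where they bind integrins, proteoglycans and growth factors and change how cells adhere, divide and lay down matrix. They share an insulin-like growth factor binding protein module, a von Willebrand factor type C module, a thrombospondin type 1 module and a cysteine-rich carboxy-terminal module, the last of which is missing from Wisp2. In fibroblasts Cyr61 and Ctgf are well known as immediate responses to serum, to TGF-beta and to mechanical tension through YAP and TEAD.

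The family resemblance can be read in the coding sequence. The stretch below lies in the insulin-like growth factor binding protein module, and the capitals mark the 8 codons that spell glycine, cysteine, any residue, cysteine, cysteine, any 2 residues, cysteine. A pattern fixed to a second glycine was searched first and missed Nov and Wisp1, and the wider pattern was found once in each of the 6 genes. The sequences are from GENCODE M21 transcripts on GRCm38.p6, the assembly that mm10 is based on, and are written 5′ to 3′ on the coding strand. They are shown because they place the 5 genes and Wisp3 side by side in the same module.
Cyr61, minus strand, chr3:145649319-145649366: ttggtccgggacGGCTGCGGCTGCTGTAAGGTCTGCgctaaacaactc
Ctgf, plus strand, chr10:24595954-24596001: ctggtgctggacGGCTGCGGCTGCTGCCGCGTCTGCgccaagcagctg
Nov, plus strand, chr15:54746253-54746300: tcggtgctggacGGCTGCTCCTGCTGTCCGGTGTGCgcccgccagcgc
Wisp1, plus strand, chr15:66906533-66906580: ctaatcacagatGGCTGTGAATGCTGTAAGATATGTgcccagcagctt
Wisp2, plus strand, chr2:163825213-163825260: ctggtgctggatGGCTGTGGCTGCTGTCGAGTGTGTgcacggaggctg
Wisp3, minus strand, chr10:39158359-39158406: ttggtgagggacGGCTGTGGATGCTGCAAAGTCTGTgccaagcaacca

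Between any pair of these genes, 14 to 20 of the 24 capital bases were identical, with 20 between Cyr61 and Ctgf. Each gene has 5 exons in the transcript used. The coding sequence holds 379 codons in Cyr61, 348 in Ctgf, 354 in Nov, 367 in Wisp1 and 251 in Wisp2. Cysteine takes 29 codons in Wisp2 and 38 to 40 in the others of the 5.

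The genes lie apart in the genome, in GRCm38.p6 coordinates. Cyr61 is at chr3:145646971-145649985 on the minus strand, Ctgf at chr10:24595442-24598683 and Wisp2 at chr2:163820752-163833146, both on the plus strand. Nov at chr15:54745910-54753762 and Wisp1 at chr15:66891369-66923201 are on the plus strand of the same chromosome. Windows of 50 bases, the read length, are unique to Cyr61, Wisp1 and Wisp2 over their whole transcripts. In Nov, 32 of 2820 windows also occur in transcripts of other genes. In Ctgf, 446 of 2349 are shared with Gm15270, a gene on the opposite strand that has no entry in the count table. In Wisp3, 435 of 1370 are shared with Tube1 on the opposite strand, so its reads cannot be told apart from those of Tube1 there, since the library kit does not mark strand.

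Library totals ranged from 24839139 to 33522082 counts on genes, and 3 counts, the floor used here, stood for 0.0895 to 0.121 CPM. Levels are counts scaled to a common library size (CPM) after TMM scaling, which corrects library sizes for composition, over all 9 libraries. The floor covers counting error only, because without molecular identifiers several reads can stem from 1 molecule. Reads on the mouse Cebpb gene lay between 25.2 and 33.3 CPM in the 9 libraries and the groups overlapped. The gene was thus counted in the EV libraries too, in spite of the knockout label, and as the deleted part is not given in the sources used here, these counts do not check that label. The introduced constructs are from rat, and this gene did not separate the groups. For the proteins, the paper gives immunoblots of both isoforms in Cebpb-ko MEFs carrying EV, LAP or LIP. All 10 fibroblast markers were detected in all groups, and their summed level was 42126 to 47374 CPM in EV, 36376 to 52621 in LAP and 19452 to 35727 in LIP. Among them Pdgfra was low, at 0.524 to 2.93 CPM, as was Pdgfrb, at 0.0969 to 1.73 CPM. Pdgfrb had 3 counts in the third LIP library, which is the floor. The markers of other cell types were low, apart from the keratin gene Krt8 and the chondrocyte factor Sox9. Ptprc of immune cells, Pecam1 of endothelial cells, Plin1 of adipocytes, Matn1 of cartilage and Myod1 of muscle were at or near 0. Other members of these lists had counts, such as Cd68 at 2.51 to 8.19 CPM, Csf1r at 0.688 to 2.81 and Kdr at 1.02 to 2.80. Ptprc, Pecam1 and Plin1 have 3, 4 and 2 curated transcripts, and levels differed with that number among the pathway genes below. Their counts of 0 are therefore not read as absence. As these are bulk libraries, fewer cells of a type and less RNA per cell cannot be told apart.

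Wisp2 was the only CCN gene past the threshold in the main quasi-likelihood fits, which had no covariate. Its RNA was 12.4-fold lower in LIP than in EV and 14.0-fold lower in LIP than in LAP. Nov was 2.05-fold and 2.23-fold lower in LIP than in EV and LAP, without passing the threshold in these fits. Its LIP libraries did not overlap with either group, as for 15.6% of all tested genes against EV and 12.8% against LAP. What a library number stands for is not given, and same-numbered LIP and LAP libraries were taken as paired from correlations in these data. With the number as a block, Nov passed the threshold against LAP (edgeR, adjusted p = 8.43e-06), in a fit that called 6.51% of all tested genes. Cyr61, Ctgf and Wisp1, the 3 abundant members, overlapped between groups in every comparison. Each comparison used edgeR's quasi-likelihood test on its 6 libraries with Benjamini-Hochberg adjustment over all genes tested, and a gene was called at an adjusted p under 0.05.

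**Figure D1:**
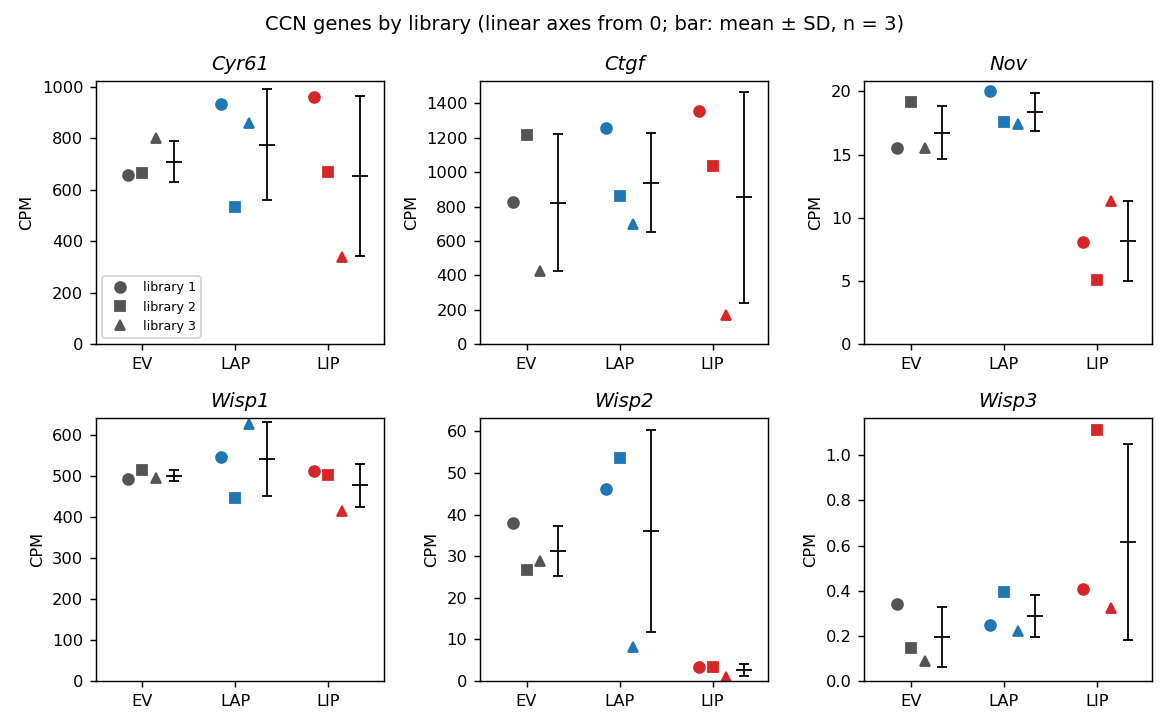
Level of each CCN gene in CPM, on linear axes that start at 0, in the 3 EV, 3 LAP and 3 LIP libraries; symbols give the library number and bars the mean ± SD (n = 3). Wisp2 in LIP lies between 0.872 and 3.37 CPM, under every EV and LAP library, while Ctgf spreads from 171 to 1354 CPM within LIP.

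Wisp2 encodes the family member without the carboxy-terminal module and is known as a secreted protein of mesenchymal cells that has been tied to Wnt signalling. In EV its level was 38.0, 26.6 and 28.9 CPM. In LAP it was 46.1, 53.6 and 8.25 CPM, and in LIP 3.35, 3.37 and 0.872 CPM. Every LIP library lay below every EV and LAP library, and the third LAP library lay apart from the other two LAP libraries and between the EV and LIP libraries.

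The counts behind these values were 1222, 722 and 985 in EV, 1496, 1492 and 223 in LAP, and 82, 103 and 27 in LIP. The lowest of them, 27 counts, is above the floor of 3 counts. The group levels were 31.2 ± 6.03 CPM in EV, 36.0 ± 24.3 in LAP and 2.53 ± 1.44 in LIP (SD, n = 3).

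Wisp2 was lower in LIP than in EV by a log2 fold change of -3.63 (SE 0.397, 95% interval -4.49 to -2.77), with an adjusted p of 0.00307. By p it was the gene at place 3 of 18203 tested. The difference was found in all 6 fits that left out 1 library, with adjusted p between 5.37e-06 and 0.0266. The call was lost with filterByExpr, edgeR's filter on low counts (adjusted p = 0.0601), and with a minimum of 10 counts in every library (adjusted p = 0.130).

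Against LAP, the log2 fold change of Wisp2 in LIP was -3.81 (SE 0.537, 95% interval -4.93 to -2.68) with an adjusted p of 0.00197, at place 8 by p. Without the second LAP library, the adjusted p was 0.0781. The same limits on low counts took the adjusted p to 0.155 and 0.213. The exact permutation test of the CPM, two-sided, gave p = 0.1 in both comparisons, which is the smallest value that 3 libraries against 3 allow.

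Nov, a family member known for restraining proliferation in several cell types, came next by p. Its level was 15.6, 19.2 and 15.5 CPM in EV, 20.1, 17.6 and 17.4 CPM in LAP, and 8.08, 5.05 and 11.3 CPM in LIP. The LIP libraries lay below all others, with the third LIP library nearest to them.

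The log2 fold change of Nov in LIP against EV was -1.04 (SE 0.271, 95% interval -1.62 to -0.45, unadjusted p = 0.00222 and adjusted p = 0.136 by edgeR). Against LAP it was -1.15 (SE 0.286, 95% interval -1.75 to -0.56, adjusted p = 0.0582). Exact permutation gave p = 0.1 for each, the smallest possible. With the number as a block, taking same-numbered LIP and LAP libraries as paired, Nov was lower in LIP than in LAP. Its log2 fold change was then -1.22 with an adjusted p of 8.43e-06 by edgeR. That blocked fit called 6.51% of all tested genes. Without the third LIP library, Nov was past the threshold against EV (log2 fold change -1.35, adjusted p = 0.0102) and against LAP (-1.47, adjusted p = 0.000476). Of the 6 fits in each comparison that left out 1 library, 1 was past it against EV and 2 against LAP. The highest adjusted p among them was 0.483 against EV and 0.204 against LAP.

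**Figure D2:**
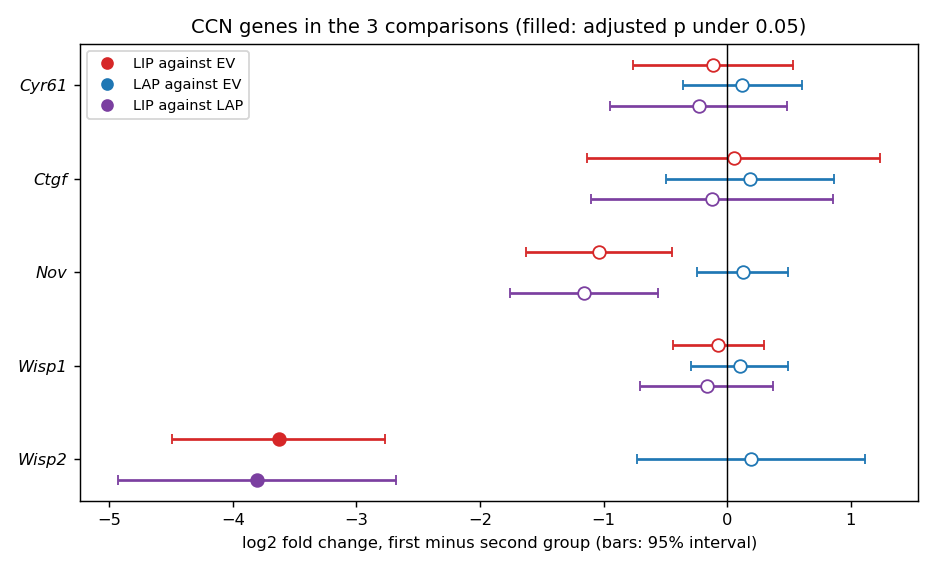
Log2 fold change of each CCN gene in the 3 comparisons, first group minus second, with 95% intervals, from the fits without a block. Filled symbols mark an adjusted p under 0.05. Wisp2 is filled at -3.63 and -3.81 in the comparisons of LIP, the intervals of Nov there stay below 0 with open symbols, and the intervals of Cyr61, Ctgf and Wisp1 include 0 throughout.

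Cyr61 encodes an integrin-binding matrix protein and is a standard readout of YAP and TEAD activity. It stood at 659, 665 and 801 CPM in EV, 934, 532 and 860 CPM in LAP, and 959, 669 and 337 CPM in LIP. The third LIP library was the lowest and the first LIP library the highest of the 9, so LIP enclosed both other groups. The log2 fold change in LIP against EV was -0.11 (SE 0.297, 95% interval -0.76 to 0.53, adjusted p = 0.909). The interval was -0.95 to 0.48 in LIP against LAP and -0.36 to 0.60 in LAP against EV. Changes of about the size seen for Wisp2 lie outside these intervals, as do changes of the size seen for Nov.

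Ctgf, which encodes a matrix protein induced by TGF-beta and linked to fibrosis, was the most abundant CCN gene by counts and the one that varied most among the abundant members. Its level was 826, 1218 and 425 CPM in EV, 1257, 865 and 698 CPM in LAP, and 1354, 1035 and 171 CPM in LIP. The library numbered 3 was the lowest in each group, and the third LIP library lay below all others. The highest of the 9 values was 7.93 times the lowest, against 2.85 for Cyr61 and 1.51 for Wisp1.

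The log2 fold change of Ctgf was 0.05 in LIP against EV (SE 0.547, 95% interval -1.13 to 1.24, adjusted p = 0.986). It had an interval of -0.50 to 0.86 in LAP against EV and -1.10 to 0.86 in LIP against LAP. The biological coefficient of variation that edgeR estimated for Ctgf in LIP against EV was 0.522, at percentile 99.3 among 149 genes of like level, that is within 0.5 on the log2 CPM scale. For Wisp1 it was 0.150, at percentile 11.4 among 289 genes. The sign of the Ctgf difference changed between settings, from -0.44 without the first LIP library to 0.55 without the third.

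Among genes that averaged 50 counts or more, 11.2% (1150 of 10252) were lowest in the library numbered 3 of every group, and Ctgf was the only one of the 5 CCN genes among them. The ratio of Cyr61 to Ctgf in CPM was 0.798, 0.546 and 1.89 in EV, 0.743, 0.615 and 1.23 in LAP, and 0.708, 0.646 and 1.97 in LIP. It was above 1 in the libraries numbered 3 and below 1 in the others. What the libraries of a number share is not given in the sources used here.

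**Figure D3:**
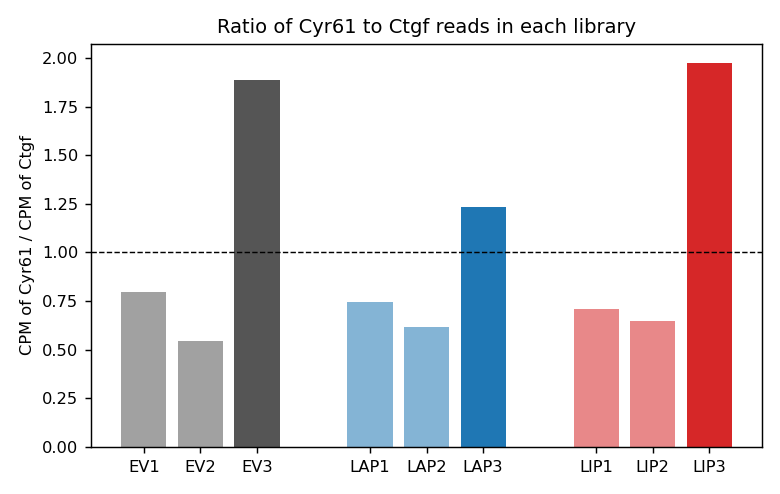
Ratio of the CPM of Cyr61 to the CPM of Ctgf in each of the 9 libraries, with a dashed line at 1 where the genes have equal CPM. The libraries numbered 3 lie at 1.23 to 1.97 and the other 6 at 0.546 to 0.798.

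Wisp1, a member first described as a target of Wnt signalling, had the smallest ratio of highest to lowest level over the 9 libraries among the 5. It stood at 491, 515 and 495 CPM in EV, 547, 447 and 627 CPM in LAP, and 513, 502 and 415 CPM in LIP. The groups overlapped, and the EV libraries lay within a narrow range with a coefficient of variation of 2.52%, compared with 16.7% in LAP and 11.2% in LIP. Within LAP, Nov varied less, with a coefficient of variation of 8.05%. The log2 fold change was -0.07 in LIP against EV (SE 0.169, 95% interval -0.44 to 0.30, adjusted p = 0.899). The interval was -0.29 to 0.50 in LAP against EV and -0.71 to 0.37 in LIP against LAP.

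Wisp3 was close to the floor, at 11, 4 and 3 counts in the EV libraries. LAP had 8, 11 and 6 counts and LIP 10, 34 and 10. The LIP library with 34 counts stood above the rest, and the difference from EV was not called (adjusted p = 0.345). No level is read from this gene, because part of its transcript overlaps Tube1.

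Read across comparisons, 1 of the 5 CCN genes was called in LIP against EV, where 0.396% of all tested genes were called (72 of 18203). The libraries of LIP and EV did not overlap for 2 of the 5, beside 15.6% of all tested genes. In LIP against LAP 1 of the 5 was called, beside 1.05% of all (190 of 18166), and 2 did not overlap, beside 12.8%. With the library number as a block there, 2 of the 5 were called, Wisp2 and Nov, beside 6.51% of all tested genes. The comparisons with EV and with LAP share the LIP libraries, so they are not independent of each other.

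In LAP against EV, 0 of the 5 were called by edgeR's quasi-likelihood test, 0 had an unadjusted p under 0.05, and DESeq2 and edgeR's exact test called 0 as well. Of all tested genes 0.0606% were called (11 of 18156). All 5 CCN genes overlapped between LAP and EV, where 7.57% of all tested genes did not. Their log2 fold changes were 0.10 to 0.19, each with an interval that includes 0, and for Wisp2 that interval was wide, -0.73 to 1.11. With the library number as a block, 54 genes were called in LAP against EV and 1183 in LIP against LAP.

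The median log2 fold change of the 5 genes was -0.11 in LIP against EV, beside 0.04 for all tested genes. It was 0.12 in LAP against EV, beside 0.02, and -0.23 in LIP against LAP, beside 0.02. In LIP against EV 4 of the 5 were below 0, beside 46% of all tested genes, and the intervals of Cyr61 and Wisp1 among them include 0. In LIP against LAP 5 of the 5 were below 0, beside 47.4%, and the intervals of Cyr61, Ctgf and Wisp1 include 0. None of the 5 was below 0 in LAP against EV, beside 47.8%.

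**Figure D4:**
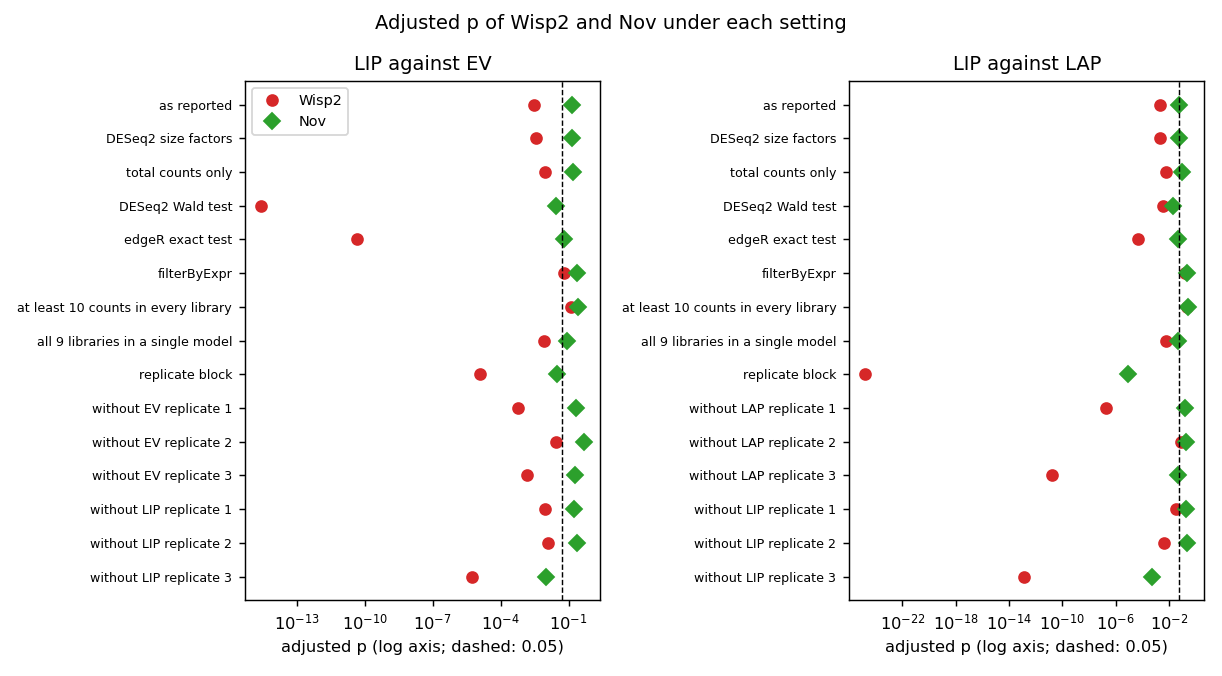
Adjusted p of Wisp2 and Nov, on a log axis, in LIP against EV and LIP against LAP under each setting of the test, with a dashed line at 0.05. Wisp2 is past the line in 12 of the 14 alternatives against EV and in 11 of 14 against LAP, and Nov in 3 and 6 of 14.

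Compared per length of transcript, Cyr61 and Ctgf led in each group. In EV, Cyr61 reached 351 ± 39.7 and Ctgf 343 ± 165 CPM per kilobase (SD, n = 3), and their ranges overlapped. Wisp1 followed at 98.2 ± 2.47, Wisp2 at 18.1 ± 3.51 and Nov at 5.84 ± 0.738 CPM per kilobase, none of which overlapped with a neighbour in the order. In LAP the order was Ctgf at 392 ± 120, Cyr61 at 384 ± 106, Wisp1 at 106 ± 17.7, Wisp2 at 20.9 ± 14.1 and Nov at 6.40 ± 0.515, and there Wisp2 and Nov overlapped because of the third LAP library.

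In LIP the order of the lower members changed. Nov stood at 2.84 ± 1.10 and Wisp2 at 1.47 ± 0.836 CPM per kilobase, with ranges that overlapped. Ctgf at 356 ± 255 and Cyr61 at 324 ± 154 overlapped each other, and the lowest Ctgf library, at 71.3 CPM per kilobase, lay below the highest Wisp1 library at 100.6. Wisp1 was at 93.5 ± 10.5 CPM per kilobase.

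The genes whose level followed each CCN gene most closely were found by Pearson's r of log2 CPM over the 9 libraries among 10251 other genes averaging 50 counts or more. These values are a description, since all points share libraries and groups. For Wisp2 they were Lrrc17 (r = 0.992), Lrrc8e (0.983) and Fam110b (0.980). Lrrc17, which encodes a leucine-rich repeat protein, stood at 30.6, 26.3 and 23.8 CPM in EV, 33.8, 41.8 and 11.4 in LAP, and 7.27, 5.54 and 3.55 in LIP, and the third LAP library was low, as for Wisp2.

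For Nov the closest genes were Tlr2 (r = 0.978), a receptor of innate immunity, Abcb6 (0.977), a transporter, and Ifnar1 (0.968), a subunit of the type I interferon receptor. For Cyr61 they were Abcc1 (0.980), Ddah1 (0.966) and Urb1 (0.944). For Ctgf they were Hspbap1 (0.983), Pvr (0.965) and Alg8 (0.965). Hspbap1 moved over a narrower range than Ctgf, from 23.5 CPM in the third LIP library to 40.5 in the first. Wisp1 had the weakest likeness, with Slc35d1 (0.921), Nos2 (0.906) and Usp7 (0.899).

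The other genes of the pathways around the CCN family were taken from fixed lists. Lats2, Amotl2 and Tgfb2 stand in more than 1 of these lists, and Fn1 is also among the fibroblast markers. The levels of the pathway genes differed with the number of curated transcripts. Of the 88 pathway genes in these lists with a curated RefSeq transcript count, the 45 with 1 curated transcript had a median of 93.5 CPM in EV and 5 lay under 5 CPM. The 43 with 2 or more had a median of 5.87 CPM and 20 lay under 5 CPM, and Vegfa was listed at 0 in every library. Over the whole table the medians were in the other order, here as means over the 9 libraries and not in EV alone. Genes with 1 curated transcript had a median of 0.623 CPM (12552 genes) and those with 2 or more 2.34 CPM (7740 genes). Only 38.1% and 36.4% of them were at 10 CPM or more. Most genes of both classes were thus low, so these medians do not tell how expressed genes compare. The part of the transcript number in the levels and tests given here was not tested. All 5 CCN genes and Wisp3 have 1 curated transcript.

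The counts in these lists are to be read against all tested genes. At an unadjusted p under 0.05, 4.23% of all tested genes were higher and 6.75% lower in LIP against EV, 1.93% higher and 1.34% lower in LAP against EV, and 3.3% higher and 5.98% lower in LIP against LAP. At an adjusted p under 0.05, DESeq2 called 1.76%, 0.143% and 1.4% of all genes in LIP against EV, LAP against EV and LIP against LAP, and edgeR's exact test called 1.65%, 0.182% and 1.33%. With the library number as a block the shares were 2.57%, 0.297% and 6.51%.

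CCN receptors and partners, that is integrin subunits, LRP co-receptors, proteoglycans and matrix or growth factors bound by CCN proteins, had 15 of 17 members tested, as Itgam and Vegfa had no counts. None was called by edgeR's quasi-likelihood test in any comparison, while 3 had an unadjusted p under 0.05 and a lower level in LIP against EV, 3 in LIP against LAP and 0 in LAP against EV. DESeq2 called Bmp4 and Itgb5 lower in LIP against EV and Itgb5 lower in LIP against LAP, and edgeR's exact test called Bmp4 and Itgb5 lower in LIP against EV. Itgb5, an integrin beta subunit that binds Cyr61 with the alpha v subunit, had a log2 fold change of -1.03 against EV (adjusted p = 0.103) and -1.05 against LAP (adjusted p = 0.120). Bmp4, a growth factor bound by Ctgf, had the smallest p in LAP against EV (log2 fold change -0.30, adjusted p = 0.918). With the library number as a block, Bmp4, Dcn and Itgb5 were lower in LIP than in LAP.

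YAP and TEAD target genes other than Cyr61 and Ctgf were all tested, 20 of 20, and none was called in any comparison by the quasi-likelihood test. At an unadjusted p under 0.05, 1 was higher and 2 were lower in LIP against EV, 2 were higher and 1 lower in LIP against LAP, and 1 was lower in LAP against EV. DESeq2 called Ccdc80 lower in LIP against LAP and no other in any comparison, and the exact test called none. Ccdc80, a secreted matrix protein, had a log2 fold change of -1.22 in LIP against EV (adjusted p = 0.213) and -1.48 in LIP against LAP (adjusted p = 0.0570). The kinase gene Nuak2 had the smallest p in LAP against EV (adjusted p = 0.918), with few counts, 17, 8 and 10 in EV and 6, 6 and 1 in LAP. With the block, Ankrd1 was higher and Ccdc80, F3 and Igfbp3 were lower in LIP than in LAP.

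The Hippo pathway components are the kinases, adaptors and TEAD partners upstream of those targets. They share Lats2 and Amotl2 with the target list, and 18 of 18 were tested. None was called and none had an unadjusted p under 0.05 in any comparison, and DESeq2, the exact test and the blocked fit called none either. Their log2 fold changes in LIP against EV were -0.21 to 0.27. The smallest p was that of the kinase gene Lats2 in LIP against EV (adjusted p = 0.674), of the TEAD cofactor gene Vgll4 in LAP against EV (adjusted p = 0.918) and of Tead2 in LIP against LAP (adjusted p = 0.657).

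Among 11 SRF and MRTF genes, which respond to actin dynamics, none was called by the quasi-likelihood test, DESeq2 or the exact test. At an unadjusted p under 0.05, 0 were found in LIP against EV, 2 were lower in LIP against LAP and 1 was higher in LAP against EV. The smallest p was that of Acta2, smooth muscle actin, in LIP against EV (log2 fold change -0.71, adjusted p = 0.508), of Myl9, a myosin light chain, in LAP against EV (0.79, adjusted p = 0.918) and of Cnn1, calponin, in LIP against LAP (-1.73, adjusted p = 0.269). Acta2, Cnn1 and Myl9 were lower in LIP than in LAP with the block.

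Of 13 Wnt pathway target genes, none was called by these 3 tests. At an unadjusted p under 0.05, 2 were lower in LIP against EV, 1 was lower in LIP against LAP and 1 was lower in LAP against EV. The smallest p was that of Notum, a secreted inhibitor of Wnt ligands, in LIP against EV (log2 fold change -1.55, adjusted p = 0.204) and in LAP against EV (adjusted p = 0.918). Nkd2, an intracellular inhibitor, had it in LIP against LAP (-1.69, adjusted p = 0.164). Notum had few counts, 42, 18 and 26 in EV, 21, 13 and 8 in LAP and 12, 7 and 7 in LIP. Nkd2 and Apcdd1 were lower in LIP than in LAP with the block.

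TGF-beta ligands, receptors and targets held the called genes among these lists. By the quasi-likelihood test 2 of 12 members fell in LIP against EV, where 0.396% of all tested genes were called. The same 2 fell in LIP against LAP, where 1.05% of all were called. They were Tgfbi and Postn, which encode secreted proteins of the matrix, and 0 rose. In LAP against EV 0 were called by the quasi-likelihood test, DESeq2 or the exact test, and 0 had an unadjusted p under 0.05. Tgfbi stood at 27.8, 20.6 and 14.9 CPM in EV, 21.6, 13.1 and 7.14 in LAP, and 5.43, 2.10 and 1.13 in LIP. Its log2 fold change was -2.89 against EV (SE 0.454, adjusted p = 0.0178) and -2.27 against LAP (SE 0.463, adjusted p = 0.0242). It was past the threshold in 10 of 14 alternatives in each.

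Postn was lower in level, at 4.57, 4.10 and 3.54 CPM in EV, 4.66, 3.13 and 2.0 in LAP, and 1.55, 0.43 and 0.39 in LIP. Its log2 fold change was -2.40 against EV (adjusted p = 0.0481) and -2.06 against LAP (adjusted p = 0.0459), and it was past the threshold in 7 and 8 of 14 alternatives. With the block, Postn, Tgfbi and Thbs1 were lower in LIP than in LAP. The median log2 fold change of the 12 genes was -0.18 in LIP against EV and -0.12 in LIP against LAP, beside 0.04 and 0.02 for all tested genes.

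**Figure D5:**
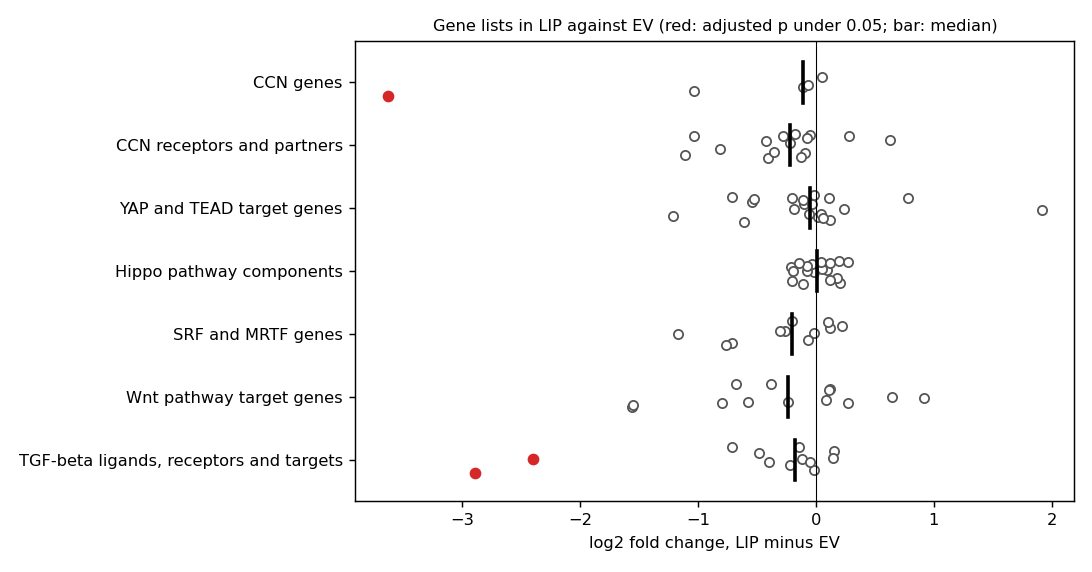
Log2 fold change in LIP minus EV for each gene of the CCN family and of the pathway lists; red points have an adjusted p under 0.05 and bars give the median of a list. The red points are Wisp2 among the CCN genes and Tgfbi and Postn among the TGF-beta genes.

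The fibroblast markers are given beside these results. Their summed level in LIP lay below that in EV and LAP in every library, as given above, and 9 of 10 had a log2 fold change below 0 in LIP against EV, beside 46% of all tested genes, with a median of -0.78. None was called by the quasi-likelihood test, 6 were lower at an unadjusted p under 0.05, beside 6.75% of all tested genes, and DESeq2 and the exact test called Col1a1 and Col1a2 lower. Col1a2, a type I collagen chain, had the smallest p (log2 fold change -1.09, adjusted p = 0.138). In LIP against LAP all 10 were below 0 with a median of -0.80 and none was called by these 3 tests. At an unadjusted p under 0.05, 5 were lower, beside 5.98% of all tested genes, with the smallest p for Pdgfrb (-1.70, adjusted p = 0.261). Pdgfrb had few counts, 56, 20 and 18 in LAP and 16, 7 and 3 in LIP. With the block 7 of 10 were lower in LIP than in LAP. In LAP against EV 0 were called by any of these tests, 0 had an unadjusted p under 0.05, and S100a4 had the smallest p (adjusted p = 0.918). The part of this list in the Wisp2 and Nov results was not tested.

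The marker lists of other cell types had no called gene in the comparisons by the quasi-likelihood test, DESeq2 or the exact test. Their summed levels were 402 to 481 CPM in EV, 389 to 742 in LAP and 505 to 797 in LIP for epithelial markers, most of it Krt8. For immune markers they were 3.69 to 6.09, 5.43 to 7.47 and 5.10 to 9.66 CPM, and for endothelial markers 3.10 to 3.79, 2.59 to 3.76 and 1.67 to 3.02 CPM. For adipocyte markers they were 1.4 to 2.96, 1.18 to 2.84 and 0.517 to 1.10 CPM, for chondrocyte markers 33.6 to 46.8, 24.8 to 34.3 and 16.0 to 34.8 CPM, and for skeletal muscle markers 0.995 to 2.11, 1.48 to 1.74 and 0.980 to 2.03 CPM. At an unadjusted p under 0.05 in LIP against EV, these 6 lists held 2 higher and 4 lower genes, as in LIP against LAP, and in LAP against EV 1 higher and 1 lower gene. With the block, Csf1r, Tek and Fabp4 of these lists were lower in LIP than in LAP.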

How the data were processed

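RNA from 9 libraries of Cebpb-ko MEFs (TruSeq RNA v2, single-end 50 base reads) was sequenced by the authors. They deposited raw counts per gene symbol, without normalization, made with TopHat 1.4.1 and HTSeq 0.5.4 after bcl2fastq 1.8.3, on mm10 with a RefSeq annotation, per the labels and the methods. The build is written with the human name GRCh38 beside mm10, and the mouse build was taken. The strand setting and the handling of reads with several alignments are not given in the sources used here. Columns were assigned to EV, LAP and LIP by their labels.

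Each comparison used its 6 libraries, all genes with 1 count or more among these, TMM normalization and the quasi-likelihood test of edgeR 4.0.16 under R 4.3.3, without covariates. Standard errors were derived from the F value and the log2 fold change (its size over the root of F). An exact permutation test, two-sided, was applied to the CPM of each CCN gene. The scripts were tested on simulated data. Python 3.11.15 and matplotlib 3.10.9 were used for figures. Library numbers were taken from the labels. The correlation of same-numbered libraries' deviations from their group means, over 11535 genes averaging 20 counts or more, was 0.524, 0.210 and 0.511 for LAP and EV and 0.558, 0.413 and 0.466 for LIP and LAP, all over 0.1, so these were taken as paired. For LIP and EV it was 0.290, -0.121 and 0.231, so these were not.

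The CCN genes and all gene lists were chosen with earlier results of these data known. Named are the 5 CCN genes, Wisp3, from each list the genes past the threshold (up to 5) or that with the smallest p, and the 3 genes most like each CCN gene. Marker lists of cell types other than fibroblasts are given by counts only, and genes that another tool or the block called are named as well, except that the result of a list gene is not reported here. Alternatives were DESeq2 1.42.0, edgeR's exact test, other scalings and filters, all 9 libraries in a single model, the block, each library left out in turn and a threshold of 0.01.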

Additional observations from a re-analysis of the deposited data

How the results depend on the processing

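Of the 5 CCN genes, 1 was called in LIP against EV and 1 in LIP against LAP. This became 2 with DESeq2 and with the replicate block in both comparisons, and 2 with edgeR's exact test and with all 9 libraries in a single model in LIP against LAP, the added gene being Nov. It became 0 with filterByExpr and with at least 10 counts in every library. Leaving out 1 library gave 1 to 2 calls in LIP against EV (2 without the third LIP library) and 0 to 2 in LIP against LAP (0 without the second LAP library, 2 without the third LAP or the third LIP library). In LAP against EV the count was 0 under every alternative. The cause of these moves was not tested.

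Over all genes, calls in LIP against EV went from 72 to 36 with total counts only, 321 with DESeq2, 301 with the exact test, 4 with filterByExpr, 0 with at least 10 counts, 467 with the block, 13 at 0.01 and 22 to 367 with 1 library left out. In LAP against EV they went from 11 to 26, 33, 3, 0, 54, 6 and 6 to 62 with DESeq2, the exact test, filterByExpr, at least 10 counts, the block, 0.01 and 1 library left out, and to 3 with all 9 libraries. In LIP against LAP they went from 190 to 113 with total counts only, 2 with filterByExpr, 0 with at least 10 counts, 1183 with the block, 36 at 0.01 and 7 to 448 with 1 library left out.

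Of 579 values of named genes under the alternatives, 18 changed sign, none of them from a called difference. With the block, Ctgf in LIP against EV was -0.28 and Wisp2 in LAP against EV -0.12 on the log2 scale. With 1 library left out, in LIP against EV the log2 fold change of Ctgf ranged from -0.44 to 0.55, that of Cyr61 from -0.49 to 0.21 and that of Wisp1 from -0.12 to 0.0293. In LAP against EV, Ctgf ranged from -0.13 to 0.57, Cyr61 from -0.0378 to 0.34, Wisp1 from -0.0247 to 0.23, Wisp2 from -0.19 to 0.66 and S100a4 from -0.0160 to 0.93. In LIP against LAP, Ctgf ranged from -0.62 to 0.36, Cyr61 from -0.62 to 0.0838 and Wisp1 from -0.30 to 7.88e-05.

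Same-numbered libraries were not taken as paired in LIP and EV, where the second LIP library was not most like the second EV library. There the block gave an adjusted p of 0.0312 for Nov (log2 fold change -1.10) and 1.24e-05 for Wisp2, and it also called Bmp4, Itgb5, Ccdc80, Igfbp3, Cnn1, Myl9, Nkd2, Col1a2, Pdgfra and Thy1 lower. In the paired comparisons, the blocked values stand beside the results described that they changed, and the block changed no other call of the genes named. With 3 libraries per group, the intervals of Ctgf and Cyr61 leave changes within them undetected.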
